A study of Mus musculus with 6 samples.

Results

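The alpha and beta globin loci of mouse hold the genes for the protein chains of haemoglobin. All 10 globin symbols chosen by name (Hba-x, Hba-a1, Hbq1b, Hba-a2 and Hbq1a of the alpha locus, and Hbb-y, Hbb-bh1, Hbb-bh2, Hbb-bs and Hbb-bt of the beta locus) were found among the 25628 symbols of a table of RNA-seq read counts. The cells were mouse leukaemic erythroid cells taken from bone marrow (TgSpi1, line 722), which overexpress the transcription factor SPI1, also called PU.1. They grew with erythropoietin (EPO) and carried a doxycycline-inducible shRNA against Spi1. Of the groups, Dox_Treated had 48 h of doxycycline, which turns the shRNA on, and Dox_Untreated had none, with 3 biological replicates each, numbered 1 to 3. Transgene, shRNA construct and EPO were common to both groups. The labels name 1 line of cells, and give neither the mouse strain nor a doxycycline group without the shRNA, so an effect of doxycycline itself and one of the shRNA cannot be told apart.

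Haemoglobin is built from 2 alpha-like and 2 beta-like chains around heme. In mouse, Hba-a1 and Hba-a2 encode the adult alpha chain, and Hbb-bs and Hbb-bt the adult beta chains of the C57BL/6 form of the locus. Hba-x (zeta), Hbb-y (epsilon-y) and Hbb-bh1 (beta-H1) are embryonic genes used by the first red cells of the yolk sac. Hbq1a and Hbq1b are theta-like genes whose products have no settled role, and Hbb-bh2 is a little-studied beta-like gene. Both clusters are switched on by distant enhancers bound by erythroid factors such as GATA1, KLF1 and NF-E2, and their output rises steeply as red cells mature. PU.1 is known to bind GATA1 and to hold back erythroid maturation in these leukaemias.

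The loci and the upstream stretches of the genes on which the results turn are given here because the copies are so alike. In GRCm38 (GENCODE M21) the alpha genes lie on the plus strand of chromosome 11, from chr11:32276400-32278116 (Hba-x) over chr11:32283511-32284465 (Hba-a1), chr11:32286965-32287784 (Hbq1b) and chr11:32296489-32297298 (Hba-a2) to chr11:32300069-32300873 (Hbq1a). The beta genes lie on the minus strand of chromosome 7, from chr7:103851749-103853216 (Hbb-y) over chr7:103841637-103843164 (Hbb-bh1), chr7:103839124-103840520 (Hbb-bh2) and chr7:103826534-103828096 (Hbb-bs) to chr7:103812524-103813996 (Hbb-bt). Each has 3 exons in its main transcript. The 250 bases before the RefSeq start (GRCm38.p6, 5′ to 3′ on the gene's own strand) are printed for Hbb-bh2, the member that passed the test, for its adult neighbour Hbb-bs, and for Hbq1b and Hba-a1 of the alpha locus. GENCODE begins Hbb-bs and Hba-a1 further upstream than RefSeq does. Part of these 2 stretches therefore lies inside the gene bounds given above, and upstream here means before the RefSeq start. Capitals mark matches, on either strand, to GATAA (the letters of a GATA site), to CCACCC (those of a CACC box), to CCAAT (those of a box of that name) and to TATAAA (those of a TATA box).
Hbb-bh2 (chr7:103840522-103840771, minus): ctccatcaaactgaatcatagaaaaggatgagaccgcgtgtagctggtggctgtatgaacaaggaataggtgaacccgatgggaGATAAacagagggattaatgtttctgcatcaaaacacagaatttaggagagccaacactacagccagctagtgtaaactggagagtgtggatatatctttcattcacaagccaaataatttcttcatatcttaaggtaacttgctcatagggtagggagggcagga
Hbb-bs (chr7:103827929-103828178, minus): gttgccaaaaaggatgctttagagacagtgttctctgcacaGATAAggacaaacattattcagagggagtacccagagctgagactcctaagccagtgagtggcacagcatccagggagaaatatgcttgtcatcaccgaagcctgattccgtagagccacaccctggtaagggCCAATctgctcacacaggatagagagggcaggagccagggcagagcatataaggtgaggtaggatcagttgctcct
Hbq1b (chr11:32286714-32286963, plus): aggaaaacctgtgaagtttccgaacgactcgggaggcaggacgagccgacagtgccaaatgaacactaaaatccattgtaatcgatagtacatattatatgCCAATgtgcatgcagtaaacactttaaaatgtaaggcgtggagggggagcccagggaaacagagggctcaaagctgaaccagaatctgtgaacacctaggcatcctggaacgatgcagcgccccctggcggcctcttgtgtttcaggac
Hba-a1 (chr11:32283422-32283671, plus): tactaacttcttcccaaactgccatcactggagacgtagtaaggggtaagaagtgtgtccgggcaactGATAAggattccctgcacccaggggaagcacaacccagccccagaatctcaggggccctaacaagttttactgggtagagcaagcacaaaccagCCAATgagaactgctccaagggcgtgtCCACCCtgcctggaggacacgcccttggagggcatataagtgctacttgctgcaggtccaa

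These letters were searched in the stretches of 9 of the 10 members, with Hbb-bh1 not analysed here. GATAA stood in 7 of the 9, all but both theta-like genes, and in 22.6% of the 32851 promoters of the RefSeq table. Hbb-bh2 held 1 GATAA, 166 bases before its start, and no match to the other capitalised motifs. Its adult neighbour Hbb-bs held matches to GATAA and CCAAT, and none to the exact letters CCACCC or TATAAA. The adult Hba-a1 held a GATA match, a CACC box and a CCAAT box, but no TATA box. The letters CCACCC occurred in 28.1% of all promoters, CCAAT in 33.8% and TATAAA in 12.4%. GGAA, the core letters of sites for ETS factors such as PU.1, occurred once in Hbb-bh2, once in Hbb-bs, 4 times in Hbq1b and 3 times in Hba-a1, against a median of 3 over all promoters, of which 93.4% held at least 1. The motifs searched do not overlap in the 4 stretches printed. A match of so few letters is a description and not a site. The lack of an exact match does not show that a variant of a box is absent.

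The near-identical copies limit what the counts of single symbols mean. The upstream stretches of Hba-a1 and Hba-a2 were identical over 247 of 247 bases once shifted by 3, and those of Hbq1b and Hbq1a over 239 of 250. Of the 50-base windows of the main transcripts, 67.5% of those of Hba-a1 and 86.9% of those of Hba-a2 also occurred in the other copy. The same held for 65.8% of the windows of Hbb-bs and 58.3% of those of Hbb-bt, and for 39.8% of Hbq1b and 36.8% of Hbq1a. Hbb-bh2, Hbb-bh1, Hbb-y and Hba-x shared no such window with any other gene. The sources used here do not say how reads that match both copies were counted, so the level of Hba-a1, Hba-a2, Hbb-bs or Hbb-bt alone is uncertain, as is that of Hbq1b and Hbq1a, while Hbb-bh2, Hbb-bh1, Hbb-y and Hba-x had no shared window of this length. Other mouse strains carry Hbb-b1 and Hbb-b2 in place of Hbb-bs and Hbb-bt, and how reads of those genes would be divided here is not known.

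Total counts lay between 78926663 and 101276319 per library. Spi1, the target of the shRNA, stood at 84.8, 80.4 and 62.1 CPM (counts scaled to a common library size) in doxycycline replicates 1, 2 and 3, and at 414.5, 353.5 and 329.6 CPM in untreated replicates 1, 2 and 3. The library sizes were adjusted by TMM, edgeR's correction for differences in composition. Of 8 erythroid markers 7 were found, and their summed level was 3360 to 4752 CPM with doxycycline and 2359 to 3303 CPM without. Most of this sum was Tfrc, the transferrin receptor, at 2682 to 3623 CPM with doxycycline and 1763 to 2506 CPM without, while Gata1 had a fold of 0.98 and Klf1 one of 1.10. Of 6 macrophage markers 5 were found, and their summed level was 0.966 to 1.47 CPM with doxycycline and 2.56 to 2.86 CPM without, with Vcam1 and Marco at deposited values of 1 to 3 in every library. All 3 B cell markers together summed to 0.0549 to 0.261 CPM with doxycycline and 0.0906 to 0.905 CPM without, and Cd3e, the 1 of 3 T cell markers found, had values of 1 to 4. All 3 megakaryocyte markers together summed to 31.6 to 149 CPM with doxycycline and 54.3 to 288 CPM without. In bulk RNA, fewer cells of a type and less RNA per cell cannot be told apart.

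The adult genes took nearly all globin counts, and the members spanned a wide range of levels. Per kilobase of exon, Hbb-bs was the most abundant at 1010 ± 223 CPM per kb with doxycycline and 1315 ± 388 CPM per kb without (SD, n = 3 each, as for all means here). Hbb-bt followed at 409 ± 285 and 420 ± 162 CPM per kb, and Hba-a1 at 254 ± 211 and 181 ± 127 CPM per kb, in doxycycline and untreated libraries. The means of Hbb-bt and Hba-a1 were within the spread over libraries, although Hbb-bt was above Hba-a1 in each of the 6 libraries. The next level differed between the groups. With doxycycline Hbq1b came next at 4.95 ± 2.63 CPM per kb, above Hbb-y (0.551 ± 0.389), Hbb-bh1 (0.416 ± 0.318) and Hbb-bh2 (0.404 ± 0.212), which lay within one another's spread. In untreated libraries Hbb-bh2 came next at 5.54 ± 2.80 CPM per kb, with Hbq1b at 1.97 ± 1.06, Hbb-y at 0.707 ± 0.486 and Hbb-bh1 at 0.587 ± 0.190 CPM per kb. Hbb-bh2 and Hbq1b were not separated beyond their spread there, and in untreated replicate 3 Hbq1b (3.16) was above Hbb-bh2 (2.66). Hba-x, Hba-a2 and Hbq1a averaged at most 0.0610 CPM per kb in either group.

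**Figure D1:**
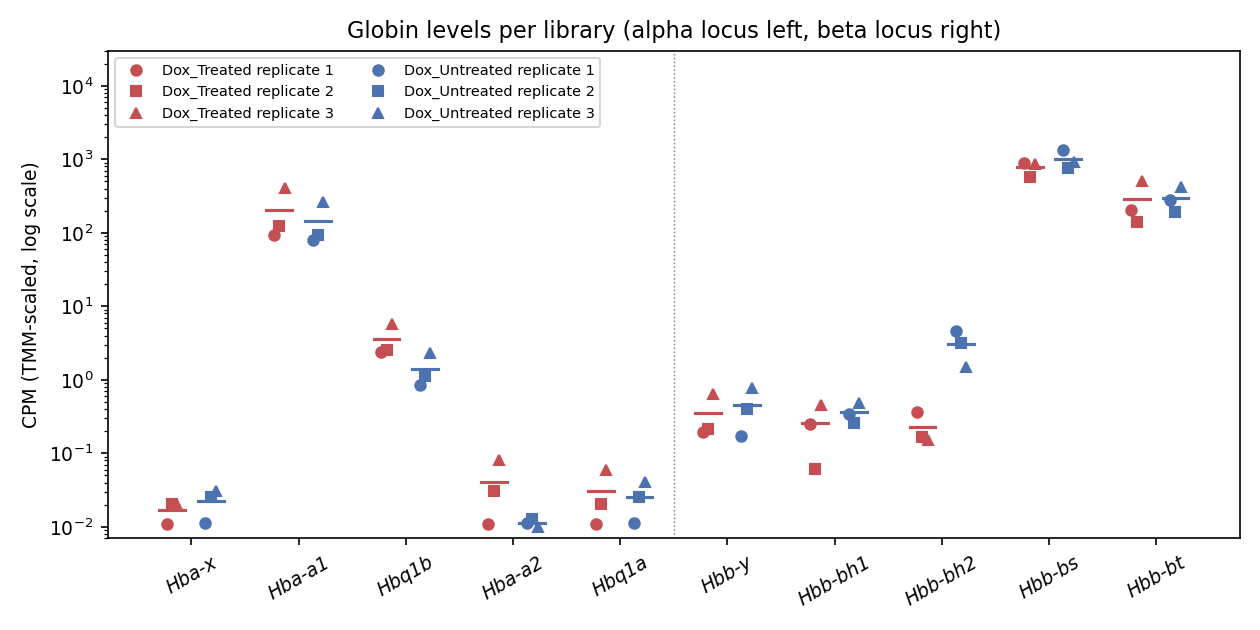
CPM (TMM-scaled, log axis) of the 10 globins in each of the 6 libraries, red for Dox_Treated and blue for Dox_Untreated, with a marker shape per replicate number and a bar at each group mean. Hbb-bh2 and Hbq1b are the tested members whose groups do not overlap, and replicate 3 is high for Hba-a1, Hbq1b and Hbb-bt in both groups.

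Hbb-bh2 fell with doxycycline and was the member that passed the test. It had 33, 16 and 15 deposited counts (0.362, 0.164 and 0.151 CPM) in doxycycline replicates 1, 2 and 3, and 407, 250 and 147 counts (4.61, 3.19 and 1.49 CPM) in untreated replicates 1, 2 and 3. The groups did not overlap, and the lowest untreated library stood above the highest doxycycline library. Its log2 fold change, doxycycline over untreated, was -3.77 (SE 0.56), which is a 13.7-fold lower level, with an adjusted p of 0.022 by edgeR's quasi-likelihood test with Benjamini-Hochberg adjustment over 14158 genes. Within replicate numbers 1, 2 and 3 the log2 difference was -3.67, -4.28 and -3.30. With the replicate number as a block the value was -3.75 (SE 0.24, adjusted p = 4.1e-06). Without a block, leaving out doxycycline replicate 1, 2 or 3 gave -4.28, -3.59 or -3.53 with an adjusted p of 0.071, 0.062 or 0.055, and leaving out untreated replicate 1, 2 or 3 gave -3.34, -3.75 or -4.11 with an adjusted p of 0.071, 0.082 or 0.018. The summed macrophage markers given above were also lower with doxycycline, without overlap of the groups, and most of their sum was Cd68. The summed megakaryocyte markers overlapped between the groups, and most of their sum was Pf4. Pf4 stood at 142, 94.0 and 22.9 CPM in doxycycline replicates 1, 2 and 3, and at 260, 165 and 37.4 CPM in untreated ones. The part of these markers in the result for Hbb-bh2 was not tested.

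Of 7 members that passed the filter on low counts, Hbb-bh2 was the 1 called, it fell, and none rose, where 2.59% of all genes tested were called (0.417% higher and 2.18% lower). The 7 passed with counts in both groups. With the replicate number as a block 2 rose and 2 fell, where 25.8% of all genes tested were called (10.3% higher and 15.6% lower), so calls with the block were common. Groups did not overlap for 2 of the 7, against 20.6% of all genes tested. The median log2 fold change of the 7 was -0.36, and 0.01 over all genes tested.

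Hbq1b, the theta-like gene, was higher with doxycycline in every replicate number. It had 221, 249 and 577 counts (2.42, 2.56 and 5.79 CPM) with doxycycline and 75, 89 and 227 counts (0.849, 1.13 and 2.29 CPM) without. The groups did not overlap, by a narrow margin, since the lowest doxycycline library was at 2.42 and the highest untreated one at 2.29 CPM. Its fold change on the log2 scale was 1.33 (SE 0.50, edgeR adjusted p = 0.26), and 1.34 with the block (SE 0.17, adjusted p = 2.7e-04), with 1.51, 1.17 and 1.34 within numbers 1, 2 and 3. The sum of Hbq1b and Hbq1a gave 1.32 (SE 0.50, edgeR adjusted p = 0.26), and 1.32 with the block (SE 0.17, adjusted p = 2.8e-04). Hbq1a itself had deposited values of 1 to 6 in every library, was not tested, and gives no fold.

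Hba-a1, adult alpha globin, stood at 93.5, 122 and 404 CPM in doxycycline replicates 1, 2 and 3, and at 80.2, 94.6 and 266 CPM in untreated replicates 1, 2 and 3. The groups overlapped, with replicate 3 far above the other 2 in both. Within replicate numbers the doxycycline library was higher each time, by 0.22, 0.37 and 0.60 on the log2 scale, a pattern in one direction that 57.3% of all genes tested also had. On the log2 scale the fold change was 0.49 (SE 0.65, edgeR adjusted p = 0.81), and 0.40 with the block (SE 0.10, adjusted p = 0.013). Leaving out doxycycline replicate 3 turned the value without the block to -0.44 (adjusted p = 0.81). Leaving out a library moved it between that and 1.24. Leaving out both libraries of replicate 1, 2 or 3 kept its direction, at 0.57, 0.53 or 0.31. Hba-a2, the twin copy, had deposited values of 1, 3 and 8 with doxycycline and 1 in each untreated library, was not tested, and the sum of both copies gave the same change as Hba-a1 alone (0.49, and 0.40 with the block, adjusted p = 0.013).

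The adult beta globin genes did not pass the test without the block. Hbb-bs stood at 892, 579 and 855 CPM in doxycycline replicates 1, 2 and 3, and at 1342, 766 and 922 CPM in untreated replicates 1, 2 and 3. The groups overlapped, while the doxycycline library was the lower of each pair of equal number, by -0.59, -0.40 and -0.11 on the log2 scale. Its change was -0.38 on the log2 scale (SE 0.25, edgeR adjusted p = 0.57), and -0.37 with the block (SE 0.11, adjusted p = 0.034). Hbb-bt stood at 207, 140 and 515 CPM with doxycycline and at 280, 190 and 417 CPM without. Its differences within numbers 1, 2 and 3 were -0.43, -0.44 and 0.31, and it did not pass with or without the block (edgeR adjusted p = 0.34 with it and 0.98 without). The sum of Hbb-bs and Hbb-bt had a log2 fold change of -0.30 (SE 0.28, edgeR adjusted p = 0.71), and of -0.31 with the block, which also missed the threshold (SE 0.12, adjusted p = 0.087). The call for Hbb-bs with the block was therefore not shared by the sum of the copies.

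The embryonic genes were close to the limit of counting. Hbb-y had 18, 21 and 63 counts in doxycycline replicates 1, 2 and 3, and 15, 31 and 77 in untreated replicates 1, 2 and 3 (log2 fold change -0.36, SE 0.65, edgeR adjusted p = 0.87). Hbb-bh1 had 23, 6 and 45 counts with doxycycline and 30, 20 and 48 without (-0.50, SE 0.63, edgeR adjusted p = 0.80). Without doxycycline replicate 3 the value of Hbb-bh1 was -1.19, and without doxycycline replicate 2 it was -0.034. Neither gene passed with the block (edgeR adjusted p = 0.39 for Hbb-y and 0.24 for Hbb-bh1). Hba-x, the embryonic alpha-like gene, had deposited values of 1 to 3 in every library and was not tested. Hbb-bh2 lies between Hbb-bh1 and Hbb-bs, and a difference between its change and theirs was not tested.

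**Figure D2:**
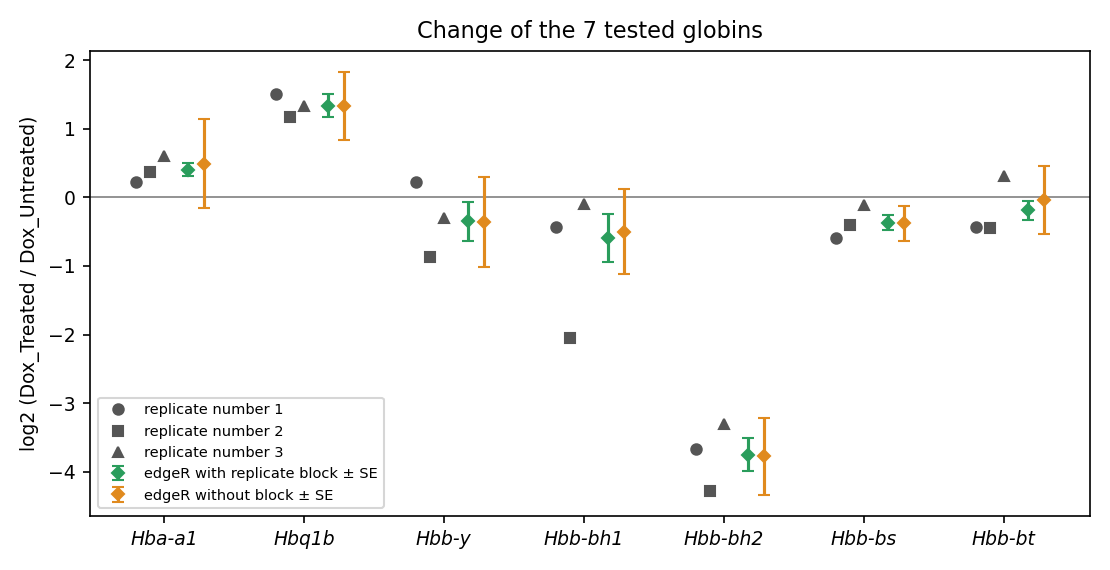
Log2 ratio of Dox_Treated over Dox_Untreated of the 7 tested globins, in grey within each replicate number, in green the edgeR estimate with the replicate block and in orange that without it, bars being the SE. Hbb-bh2 lies between -4.28 and -3.30 and Hbq1b between 1.17 and 1.51 within the numbers, while Hbb-y and Hbb-bt have both signs.

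As shares of all reads, the 10 globins took 0.119%, 0.0857% and 0.175% of the counts in doxycycline replicates 1, 2 and 3, and 0.171%, 0.105% and 0.162% in untreated replicates 1, 2 and 3. The groups overlapped, and the share was lower with doxycycline in numbers 1 and 2 and higher in number 3. The exact two-sided permutation test gave p = 0.70 (adjusted p = 0.70 over the 3 shares tested here). With 3 libraries against 3 this test cannot go below 0.10.

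Within the globin counts, the part of the alpha-like genes was larger with doxycycline in each replicate number. It was 8.03%, 14.8% and 23.0% with doxycycline and 4.75%, 9.07% and 16.6% without, so the groups overlapped and the differences were 3.28, 5.73 and 6.35 percentage points within numbers 1, 2 and 3. Hba-a1 made up nearly all of it, and Hbb-bs gave way, with 74.6%, 68.6% and 48.0% of globin counts with doxycycline and 78.6%, 72.6% and 57.3% without. The exact permutation test of the alpha-like part over the 6 libraries gave p = 0.50 (adjusted p = 0.70). That test leaves out the pairing by number. Flipping the signs of the differences within numbers gave an unadjusted p of 0.25, the smallest that such flips of 3 differences allow. Since the counting of reads shared by Hba-a1 and Hba-a2 is not known, this part is not a ratio of alpha to beta mRNA.

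Hbb-bh2, Hbb-bh1 and Hbb-y together made 0.0738%, 0.0614% and 0.0900% of beta-like counts in doxycycline replicates 1, 2 and 3, and 0.315%, 0.400% and 0.205% in untreated replicates 1, 2 and 3. The groups did not overlap, with an exact permutation p of 0.10 (adjusted p = 0.30), the smallest p this design allows. Hbb-bh2 alone held 0.0303%, 0.0195% and 0.00845% of all globin counts in doxycycline replicates 1, 2 and 3, and 0.270%, 0.302% and 0.0923% in untreated replicates 1, 2 and 3. The difference in this share therefore followed Hbb-bh2, while Hbb-y was at 0.0165%, 0.0255% and 0.0355% of globin counts with doxycycline and 0.00995%, 0.0374% and 0.0484% without.

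**Figure D3:**
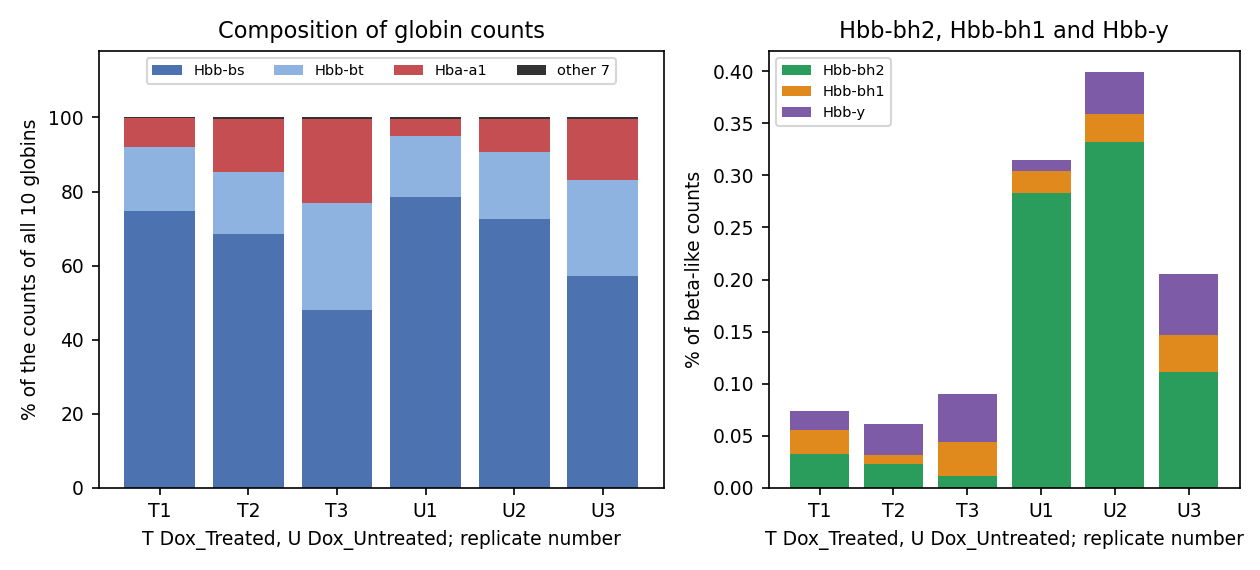
Left, share of the counts of all 10 globins taken by Hbb-bs, Hbb-bt, Hba-a1 and the other 7 in each library, and right, share of beta-like counts taken by Hbb-bh2, Hbb-bh1 and Hbb-y, with Dox_Treated libraries (T) left of Dox_Untreated ones (U). The right bars reach at most 0.0900% with doxycycline and at least 0.205% without, Hbb-bh2 makes up most of each untreated bar but not of the doxycycline bars, and in the left bars Hbb-bs holds least in replicate 3 of either group.

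Several globins differed between replicate numbers in the same way in both groups. Replicate 3 was the highest of its group for Hba-a1, Hbq1b, Hbb-bt, Hbb-y and Hbb-bh1 in both groups, and the lowest for Hbb-bh2 in both groups. Hbb-bs, the most abundant globin, did not follow this and was highest in replicate 1 and lowest in replicate 2 of both groups. What a replicate number marks is not stated in the labels.

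By the naming rule, 3 genes outside the loci were picked for each of Hba-a1, Hbb-bs and Hbb-bh2 by the highest Pearson correlation of log2 CPM over the 6 libraries, among 9298 genes of at least 5 CPM. These libraries share their replicate numbers and, for Hbb-bh2, fall into 2 separate groups, so the values describe a likeness and carry no test. Hba-a1 was most like Alas2, the erythroid enzyme of the first step of heme synthesis (r = 0.996), Hoxd8 (0.996) and Il1r1, an interleukin 1 receptor (0.995). Alas2 stood at 24.3, 27.6 and 88.6 CPM with doxycycline and 21.8, 22.7 and 59.3 CPM without. Hbb-bs was most like Gm9824 (0.993), B9d2 (0.991) and Txndc15 (0.991). Among the genes picked for Hbb-bh2 was Limd2 (0.994), which stood at 5.94, 4.34 and 4.73 CPM with doxycycline and 41.1, 33.6 and 20.5 CPM without.

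**Figure D4:**
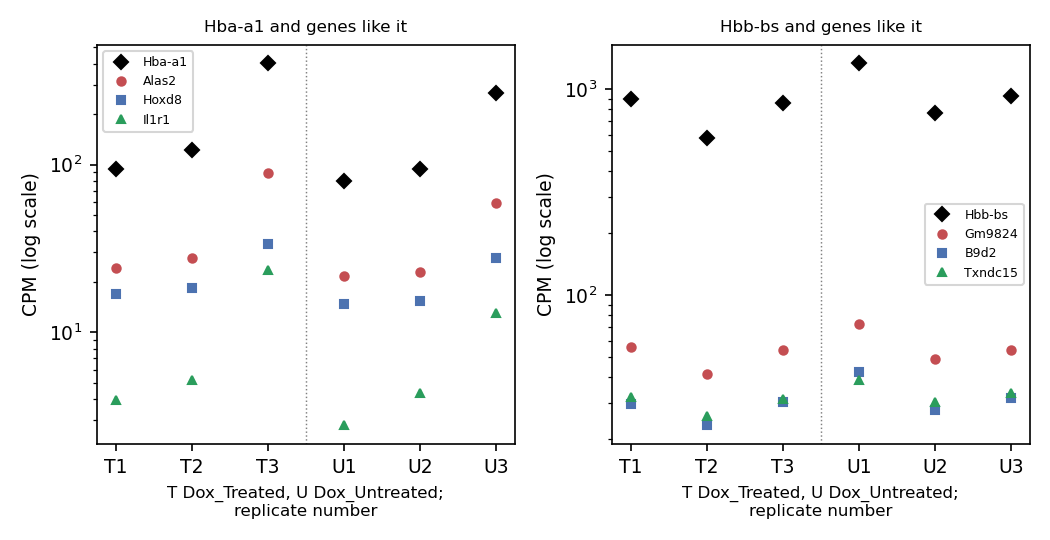
CPM (log axis) of Hba-a1 and Hbb-bs and of genes picked for their likeness to each, in the Dox_Treated libraries (T) left of the dotted line and the Dox_Untreated libraries (U) right of it. Alas2 and Hba-a1 are both highest in replicate 3 of each group, and Gm9824 and Hbb-bs are both lowest in T2 and highest in U1.

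Genes flanking the alpha locus were not called by edgeR without the block. Of 7 such neighbours 6 were tested and none rose or fell, with a median log2 fold change of 0.42, and with the block 3 rose and none fell, where 10.3% of all genes tested rose and 15.6% fell. Snrnp25, a component of the minor spliceosome, stood at 51.8, 41.6 and 61.8 CPM with doxycycline and 48.2, 33.8 and 44.5 CPM without. Mpg, a DNA glycosylase, stood at 29.1, 26.7 and 37.0 CPM with doxycycline and 25.1, 18.6 and 25.9 CPM without, with a block log2 fold change of 0.41 (SE 0.11, edgeR adjusted p = 0.018). Nprl3, whose introns hold the alpha globin enhancers, had a block value of 0.48 (SE 0.12, edgeR adjusted p = 0.015). Il9r, the interleukin 9 receptor, had 33, 94 and 189 counts with doxycycline and 3, 9 and 13 without (log2 fold change 3.50, SE 0.73, edgeR adjusted p = 0.058, and 3.49 with the block, SE 0.30, adjusted p = 2.7e-05). Without doxycycline replicate 3 the value of Il9r was 2.81 (edgeR adjusted p = 0.096). DESeq2, also without a block, called Il9r at 3.55 (adjusted p = 3.7e-05), where it called 1013 of all genes tested. Nprl3 and Il9r were picked after their values were seen.

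Of 22 regulators of the globin loci 1 fell and none rose, with a median log2 fold change of 0.00. Mbd2, a methyl-CpG binding protein of the NuRD complex known for a part in silencing the human fetal globin genes in mice that carry them, fell to 107, 101 and 136 CPM with doxycycline, against 207, 226 and 219 CPM without (log2 fold change -0.92, SE 0.15, edgeR adjusted p = 0.027). Its adjusted p was 0.13, 0.063 or 0.036 without doxycycline replicate 1, 2 or 3, and 0.11, 0.12 or 0.069 without untreated replicate 1, 2 or 3. With the block 3 rose (Tal1 by 0.52, Klf3 by 0.58 and Zfpm1 by 0.27) and 3 fell (Mbd2 at -0.93, Chd4 at -0.47 and Nfe2 at -0.41) on the log2 scale, and those other than Mbd2 are named after their values were seen. These 6 of 22 regulators are near the 25.8% of all genes tested that were called with the block. Of the 6, DESeq2 without a block called Mbd2, Tal1 and Klf3 (adjusted p = 1.8e-04, 0.0032 and 0.0019). It did not call Zfpm1, Chd4 and Nfe2 (adjusted p = 0.62, 0.84 and 0.18).

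Genes of haemoglobin assembly and heme supply were not called by edgeR without the block either. Of 12 on the list 11 were tested, none passed, the median was 0.30, and 6 rose and none fell with the block, where 10.3% of all genes tested rose and 15.6% fell. The chaperone of alpha globin, Ahsp, was not analysed here. Pcbp1, an iron chaperone, averaged 413 ± 34.2 CPM with doxycycline and 397 ± 37.9 CPM without, and Fech, which puts iron into heme, 270.5 ± 37.2 and 186.5 ± 26.5 CPM (log2 fold change 0.54, SE 0.16, edgeR adjusted p = 0.16, and 0.0010 with the block). Of the globins used outside red cells, Cygb was tested and had 6 to 16 deposited counts per library (log2 fold change 0.29, SE 0.45, edgeR adjusted p = 0.85).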

How the data were processed

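Poly(A) RNA of 6 cultures was sequenced from Illumina TruSeq RNA v2 libraries, per the labels' protocols, a kit that does not mark strand. The authors deposited raw read counts per gene symbol. Tools named in the submitters' processing notes are STAR, DESeq2 and bcl2fastq 2.17.1.14, with the builds GRCm38 and mm10, and no roles are stated. The counter, the annotation and the handling of multi-mapping reads are not stated in the sources used here. The smallest deposited count was 1 in every column and no 0 occurred, so 1 may have been added to each; taking it off was an alternative.

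Tests used R 4.3.3 and edgeR 4.0.16, which calls limma 3.58.1, with TMM, filterByExpr (minimum count 10) and the quasi-likelihood F test, two-sided, group as the single term, over 14158 genes, adjusted p under 0.05 being the threshold. A log2 fold change is Dox_Treated over Dox_Untreated, and SE is its size over the square root of F. "Rose" and "fell" without mention of the block refer to this fit. Near-identical copies were also summed and refitted. The numbers were taken to pair the libraries, since those of equal number deviated together from their group means (correlations 0.77, 0.74 and 0.72 over genes). Residual degrees of freedom were 2 with the block and 4 without. The common coefficient of variation between replicates, as edgeR estimates it, was 11.3% with the block and 28.6% without. The fit without the block leaves this pairing out, so a gene that did not pass it is not thereby shown to be unchanged. The labels call the libraries biological replicates without saying what separates them, so p-values measure the spread between these cultures. Shares were tested by exact permutation of the 6 libraries, two-sided. As an alternative, the signs of the differences within replicate numbers were flipped in every way. These flips gave an unadjusted p of 0.50 for the total globin share. For the part of Hbb-bh2, Hbb-bh1 and Hbb-y in beta-like counts they gave 0.25. Levels per kb used the exon union of GENCODE M21, which may not be the authors' annotation. Windows of 50 bases were matched against all GENCODE M21 transcripts on both strands. The fit was also run on simulated counts, drawn without an effect of replicate number. That run therefore cannot show how a fit with or without the block handles paired libraries. Alternatives were DESeq2 1.42.0, its size factors, no filter, globins out of the library sizes, and leaving out libraries. Members, lists and tests were chosen with earlier results of these data known. Named genes were the 10 members, the 3 genes most like Hba-a1, Hbb-bs and each member that passed, and in each list those that passed or, with none, the 2 most abundant. Of the genes this rule named, 2 are not reported here. Older symbols were looked up by hand for list members not found, without a match. The lists were alpha locus neighbours, globin regulators, haemoglobin assembly and heme supply, globins outside red cells, and markers of erythroid, macrophage, B, T and megakaryocyte cells.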

Additional observations from a re-analysis of the deposited data

How the results depend on the processing

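The count of globins called was 1 without the block and by DESeq2, with DESeq2 size factors, without a filter, with 1 taken off every value and with globins out of the library sizes. It was 4 with the replicate block, and between 0 and 1 when 1 library or both libraries of 1 number were left out. No summed copy was called by edgeR without the block, where Hbq1a + Hbq1b had an unadjusted p of 0.032, nor by DESeq2, and 2 were called with the replicate block, whereas leaving out libraries gave 0. Over all genes 367 were called, 3658 with the replicate block, 1013 by DESeq2, and between 38 and 268 when 1 library was left out. Leaving out both libraries of replicate 1, 2 or 3, which was chosen after seeing the data, gave 0, 0 and 201. Hbb-bh2 kept its direction throughout, between -4.28 and -3.34 when libraries were left out at -3.84 with 1 taken off, and with an adjusted p of 0.26, 0.23 and 0.038 without both libraries of replicate 1, 2 or 3 (edgeR). Directions turned when libraries were left out for Hbb-bt (from -0.76 up to 0.29, with 0.13 and 0.057 without both libraries of replicate 1 or 2), Hba-a1 and its sum with Hba-a2 (both from -0.44 up to 1.24), Hbb-y (from -1.11 up to 0.31), Pcbp1 (from -0.020 up to 0.12, with -0.0018 without doxycycline replicate 3) and Cygb (from -0.016 up to 0.58), and the causes were not tested. Hba-a1 and its sum with Hba-a2 kept their direction without both libraries of replicate 1, 2 or 3, each at 0.57, 0.53 and 0.31. The difference in total globin share lay between -0.0434 and 0.00135 percentage points when 1 library was left out, against -0.0192 over all 6. The cause of this was not tested. Hbb-bh1, Hbb-y and Hbb-bh2 have 6 to 63 counts in doxycycline libraries, which limits their precision.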

Other observations

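Ratios between members, read off after the values were seen and not tested, differed between replicate numbers as well as between groups. Hbb-bt had 0.232, 0.241 and 0.602 counts per Hbb-bs count in doxycycline replicates 1, 2 and 3, and 0.208, 0.248 and 0.452 in untreated replicates 1, 2 and 3. Hba-a1 had 0.105, 0.211 and 0.472 counts per Hbb-bs count with doxycycline and 0.0598, 0.123 and 0.288 without, higher with doxycycline in each number although the groups overlap. Hba-a1 had 0.452, 0.876 and 0.784 counts per Hbb-bt count with doxycycline and 0.287, 0.498 and 0.637 without. Hbq1b had 2.59, 2.09 and 1.43 counts per 100 of Hba-a1 with doxycycline and 1.06, 1.20 and 0.864 without, and here the groups did not overlap. Both Hba-a1 and Hbq1b share part of their windows with a copy, so these ratios are of deposited counts and not of mRNA molecules.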
